A study of Homo sapiens with 17 samples.

Results

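The organisation of the nucleus rests on several protein classes, and 10 genes that encode them were followed here through the chromatin marks at their own loci. SAFB and SAFB2 encode scaffold attachment factors, which bind matrix-attached DNA and RNA, and MATR3 encodes matrin 3, an RNA-binding protein of the nuclear matrix. CTCF encodes the zinc finger protein that stops cohesin at loop anchors, and RAD21, SMC3 and STAG1 encode subunits of the cohesin ring, which extrudes chromatin loops and holds sister chromatids together. LBR encodes the lamin B receptor and LMNB1 encodes lamin B1, which together tether heterochromatin to the nuclear envelope, and TOP2B encodes topoisomerase II beta, which relieves torsion in DNA. HNRNPU, also known as scaffold attachment factor A, is a nuclear RNA-binding protein of the same matrix fraction. The genes were listed for their known roles, no measured value entered the rule, and all 10 of 10 were found among the 20033 protein-coding genes of the RefSeq table (GRCh38.p14).

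CUT&Tag was performed in H1 cells, an established line of human pluripotent stem cells. In this assay an antibody bound to chromatin directs a transposase, which cuts and tags the DNA beside it. The 17 libraries covered H3K4me1 and H3K27ac (6 each), POLIIS2P (3) and HNRNPU (2). Untransfected cells were used for HNRNPU. Cells for the other antibodies carried a virus-borne shRNA, either shHNRNPU#1 or shHNRNPU#2, both directed at HNRNPU, or the control shLUC, directed at luciferase, and all of them, controls included, had been selected with puromycin. Each histone antibody was run with 2 repeats of each shRNA, so that 4 shHNRNPU libraries faced 2 shLUC libraries, and POLIIS2P was run with 1 shHNRNPU#1 library and 2 shLUC libraries. H3K4me1 marks enhancers and the flanks of promoters, H3K27ac marks active promoters and enhancers, and POLIIS2P is the name in the titles for an antibody that the protocol does not list. By its name it would recognise RNA polymerase II phosphorylated at serine 2, the form found on transcribed gene bodies. The protocol lists an antibody against MATR3, but no MATR3 library is among the 17.

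For the 4 shLUC histone libraries the titles and the file names gave opposite antibodies, and the antibody was taken from the file name. Among the 20000 highest-scoring summits of each list, the shLUC libraries with H3K4me1 in the file name shared 68.2% to 73.5% with the shHNRNPU H3K4me1 libraries and 18.2% to 25.8% with the shHNRNPU H3K27ac libraries. Those with H3K27ac in the file name shared 46.4% to 55.6% with the shHNRNPU H3K27ac libraries and 20.9% to 24.3% with the H3K4me1 libraries. The lists held 147145 to 214333 summits for H3K4me1, 40487 to 90914 for H3K27ac, 79949 to 87456 for POLIIS2P and 34649 to 35526 for HNRNPU. Of 10 genes listed as markers of pluripotent cells, 3 (DNMT3B, ZFP42 and L1TD1) had H3K27ac at the start in all 6 libraries and 2 (NANOG and DPPA4) had it in none. Of 12 markers of other cell types, 0 had it in all 6 and 11 had it in none. At the start of the HNRNPU gene itself H3K27ac lay between the 56.5th and 95.9th percentile in the shHNRNPU libraries and at 92.0 and 95.5 in the shLUC libraries. No library measured HNRNPU protein or RNA after the shRNA, so the depletion could not be checked.

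Each deposited list gives summits, the base of highest signal in a called peak, with a score. The start percentile of a gene, used throughout, is the percentile within its own list of the highest-scoring summit within 1000 bp of a listed gene start, where 100 is the top of the list and 0 means that no summit was called. It ranks a summit against the other summits of the same library and is not an amount of the mark. SAFB and SAFB2 are transcribed away from each other from starts 307 bp apart on chromosome 19 and therefore share their summits, which leaves 9 distinct start regions. The windows extended from 10 kb before to 10 kb after each gene.

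The loci differ widely in size. SAFB spans 45396 bp of chromosome 19 (5623083 to 5668478, plus strand) and SAFB2 spans 35778 bp (5586999 to 5622776, minus strand). MATR3 lies on chromosome 5 (139274101 to 139331677, plus strand) with listed starts at 139274101 and 139293740, and LMNB1 lies on the same chromosome (126776623 to 126837020, plus strand) with starts at 126776623 and 126777136. CTCF lies on chromosome 16 (67562526 to 67639177, plus strand) and SMC3 on chromosome 10 (110567695 to 110606048, plus strand). STAG1 and TOP2B lie on the minus strand of chromosome 3 (136336236 to 136752378 and 25597905 to 25664907), and STAG1 is by far the longest of the genes at 416143 bp. LBR lies on the minus strand of chromosome 1 (225401502 to 225428821). RAD21 has no listed start, so both of its ends were used.

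The sequences below are the start regions in which the strongest H3K27ac summit of every H3K27ac library fell inside the printed window. For MATR3 they are the starts that carried different marks. Each runs from 250 bases before the start through the first 30 transcribed bases, 5′ to 3′ on the strand of the gene, in GRCh38.p14 from RefSeq, and capitals mark matches to 7 short motifs on either strand.
SAFB (chr19:5622833-5623112, plus strand): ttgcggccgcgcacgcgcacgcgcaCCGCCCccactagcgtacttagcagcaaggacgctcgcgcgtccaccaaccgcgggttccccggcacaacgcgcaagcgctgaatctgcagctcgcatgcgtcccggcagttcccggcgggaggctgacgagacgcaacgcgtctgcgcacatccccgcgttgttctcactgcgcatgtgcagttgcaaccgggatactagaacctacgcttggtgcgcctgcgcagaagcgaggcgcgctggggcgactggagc
SMC3 (chr10:110567445-110567724, plus strand): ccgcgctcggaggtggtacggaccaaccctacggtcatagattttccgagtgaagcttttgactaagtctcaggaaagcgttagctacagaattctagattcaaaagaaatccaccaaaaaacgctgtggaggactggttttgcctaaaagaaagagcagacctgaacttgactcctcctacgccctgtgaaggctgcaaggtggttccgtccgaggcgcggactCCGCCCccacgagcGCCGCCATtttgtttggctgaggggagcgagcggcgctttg
STAG1 (chr3:136752349-136752628, minus strand): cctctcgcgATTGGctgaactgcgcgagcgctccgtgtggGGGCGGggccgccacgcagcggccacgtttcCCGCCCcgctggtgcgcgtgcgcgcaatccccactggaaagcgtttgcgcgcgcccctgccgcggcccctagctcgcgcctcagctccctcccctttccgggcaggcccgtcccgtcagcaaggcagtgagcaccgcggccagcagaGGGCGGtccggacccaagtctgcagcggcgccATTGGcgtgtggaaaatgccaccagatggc
TOP2B (chr3:25664878-25665157, minus strand): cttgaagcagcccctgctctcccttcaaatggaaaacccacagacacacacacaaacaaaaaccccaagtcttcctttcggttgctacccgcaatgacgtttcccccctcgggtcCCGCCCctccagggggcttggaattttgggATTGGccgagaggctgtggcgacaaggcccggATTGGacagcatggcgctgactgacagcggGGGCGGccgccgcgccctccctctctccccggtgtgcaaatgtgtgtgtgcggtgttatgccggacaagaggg
MATR3, first start (chr5:139273851-139274130, plus strand): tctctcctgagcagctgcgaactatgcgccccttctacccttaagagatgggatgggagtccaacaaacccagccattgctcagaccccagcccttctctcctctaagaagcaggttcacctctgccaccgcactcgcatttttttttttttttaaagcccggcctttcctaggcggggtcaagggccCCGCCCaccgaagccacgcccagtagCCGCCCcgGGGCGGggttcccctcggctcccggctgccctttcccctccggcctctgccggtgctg
MATR3, second start (chr5:139293490-139293769, plus strand): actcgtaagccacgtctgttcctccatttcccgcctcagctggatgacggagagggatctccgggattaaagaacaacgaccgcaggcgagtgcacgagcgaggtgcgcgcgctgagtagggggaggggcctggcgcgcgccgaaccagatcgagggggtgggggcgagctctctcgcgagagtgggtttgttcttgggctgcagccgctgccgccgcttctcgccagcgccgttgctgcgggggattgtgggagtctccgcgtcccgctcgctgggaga
The motifs were the GC box GGGCGG, the CCAAT box CCAAT, the ETS core CGGAAG, the YY1 core ATGGCGGC, the CRE TGACGTCA, the E-box CACGTG and TATAAA. A GC box lay in 9 of the 12 listed start regions of the genes and in 55.3% of 22198 start regions of all protein-coding genes. CCAAT lay in 3 of 12, against 34.0% of all, and the YY1 core in 1 of 12 (SMC3), against 2.81%. The E-box lay in 1 of 12 (the second LMNB1 start), against 8.05%. None of the 12 held the ETS core (22.96% of all), the CRE (2.26%) or TATAAA (9.28%). Such matches are letters in a window and do not show that a factor binds. The GC content was 36.8% at LBR, the lowest of the genes and at the 3.87th percentile of all start regions, and 80.0% at the downstream TOP2B start (25664372), the highest. At MATR3 the first start had 16 CpG dinucleotides and the second 32.

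HNRNPU was present at the start of most of these genes in untransfected cells. Both repeats had a summit within 1000 bp of the start for 8 of the 10 genes, against 48.9% of all protein-coding genes, and the 2 genes without one in both were SAFB and SAFB2. The percentiles were 97.5 and 97.3 at CTCF, 98.1 and 95.1 at STAG1, and 96.2 and 97.0 at SMC3. Both CTCF values lay above both SMC3 values, whereas the STAG1 range covered those of CTCF and SMC3, so STAG1 was not ordered against them. LMNB1 followed with 95.5 and 92.9, below the lower SMC3 value but overlapping with STAG1, and RAD21 with 85.2 and 90.3. The values were 77.8 and 82.6 at LBR and 81.4 and 75.8 at TOP2B, whose ranges overlapped. MATR3 differed most between repeats among the genes with a summit in both, at 92.5 and 68.6. At the shared start of SAFB and SAFB2 the first repeat had no summit and the second had one at the 65.5th percentile.

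The HNRNPU summits sat close to the listed starts and often on nearly the same base in both repeats. At CTCF both repeats placed the summit on base 67562163, 363 bp before the start and inside the divergent transcript CTCF-DT (67561411 to 67562309). At TOP2B both placed it on base 25664971, 64 bp before the start, inside the sequence printed above. The RAD21 summits were 1 bp apart, 190 bp outside the gene end at which the active marks also lay. At SMC3 the repeats lay 392 and 223 bp before the start, at STAG1 215 and 101 bp before it, and at LBR 700 and 583 bp downstream of it. The HNRNPU libraries had 47 distinct summits in the windows of the 10 genes over both repeats, of which 48.9% fell within 1000 bp of a start. The corresponding share was 29.2% for H3K27ac, 11.9% for POLIIS2P and 10.5% for H3K4me1.

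A total of 12 HNRNPU sites, none of them in MATR3 or SAFB, had summits of both repeats within 250 bp of each other, 5 of them away from the gene start regions or beside a stronger one. CTCF had a second site 652 bp after the start (22.2 and 51.1), with H3K27ac in all 6 libraries within 500 bp and H3K4me1 in none. TOP2B had one 16157 bp into the gene (86.0 and 75.5), with H3K4me1 in all 6 libraries and H3K27ac in 3. LMNB1 had one 1313 bp after its second start (62.6 and 64.8) with H3K4me1 in all 6 libraries and H3K27ac in 4. Another LMNB1 site lay beyond the gene, 68504 bp after the second start (56.5 and 42.8), with none of the other antibodies within 500 bp. The last lay in the flank beyond SAFB2, 44308 bp from its start (42.0 and 48.9), with H3K4me1 in all 6 libraries and H3K27ac in none.

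**Figure D1:**
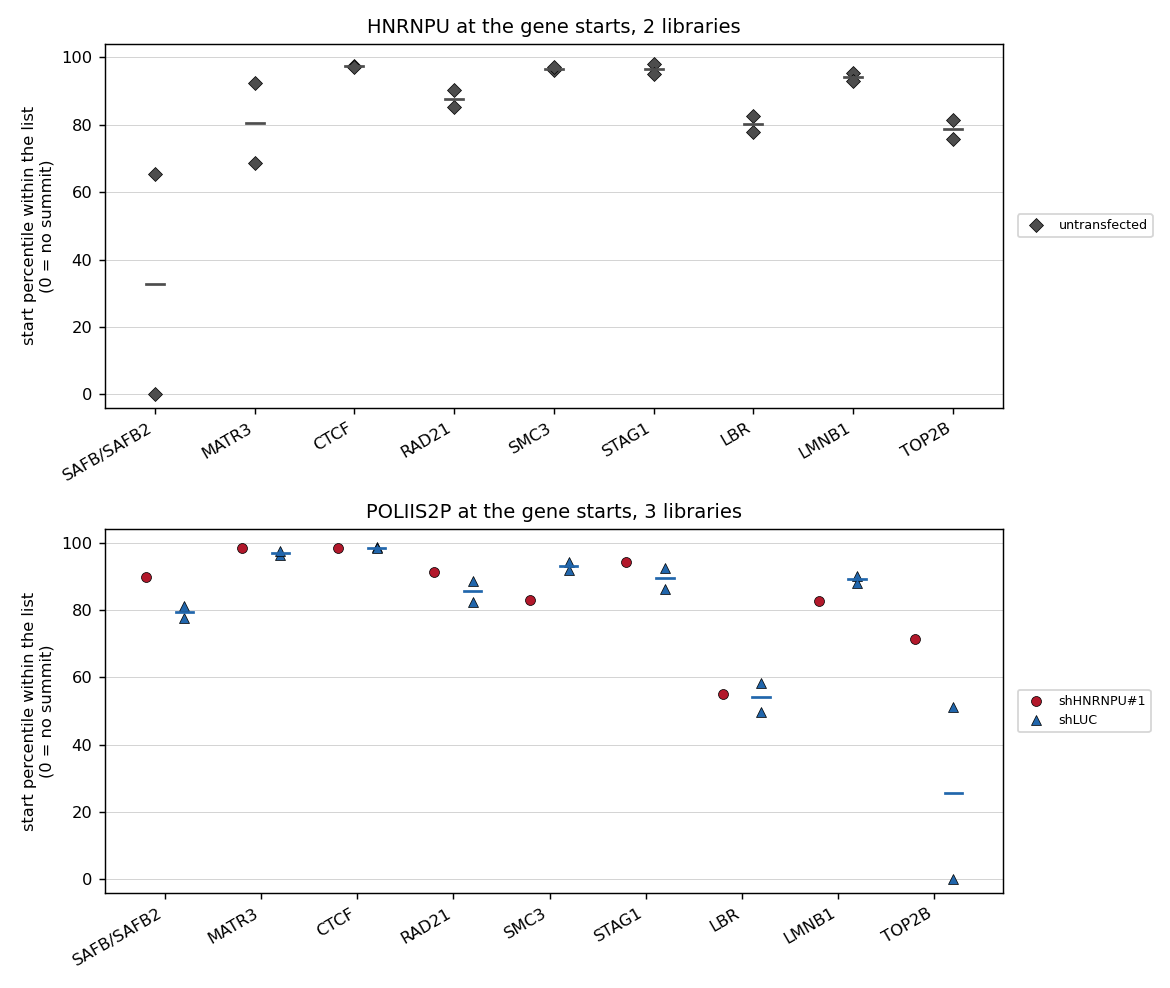
Start percentile (vertical axis, 0 to 100, 0 where no summit was called) of HNRNPU in 2 untransfected libraries and of POLIIS2P in 1 shHNRNPU#1 and 2 shLUC libraries at the 9 distinct start regions; each symbol is a library and bars are means. CTCF, STAG1 and SMC3 had HNRNPU above 95 in both libraries, whereas SAFB/SAFB2 had 0 and 65.5.

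POLIIS2P was found at the start in all 3 libraries for 9 of the 10 genes, against 52.0% of all genes, and TOP2B was the exception. CTCF (98.4 to 98.7) and MATR3 (96.4 to 98.5) stood highest and their ranges overlapped. STAG1, SMC3, RAD21, LMNB1 and SAFB with SAFB2 followed with overlapping ranges between 77.6 and 94.3. LBR (49.7 to 58.5) lay below all of these, and TOP2B varied from 0 to 71.5. For RAD21 the highest summit of the first shLUC library, at 88.7, lay at the far end of the gene. At the end with the active marks that library was at 81.6.

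With 1 shHNRNPU#1 library against 2 shLUC libraries an exact permutation test could not pass 0.05 and none was run, so the values are given as they stand. At the shared start of SAFB and SAFB2 POLIIS2P was at 89.8 in shHNRNPU#1 and at 81.3 and 77.6 in shLUC. At SMC3 it was at 83.0, below 94.2 and 91.9 in shLUC, and at LMNB1 at 82.8, below 90.3 and 88.0. TOP2B stood at 71.5 against 0 and 51.2, the widest gap between the control libraries among the genes. The shHNRNPU#1 value lay above both shLUC values for 6 genes (5 of the 9 start regions), against 34.9% of all genes with a summit, and below both for 2, against 31.7%. RAD21 counts among the 6 also at its active end alone, with 91.4 against 81.6 and 82.4. The median difference over the 10 genes was 3.18 percentile points (shHNRNPU#1 minus the shLUC mean), against -0.04 over 13663 genes, and 1.49 when SAFB and SAFB2 were counted as 1 start region.

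Over the whole windows, starts and flanks included, POLIIS2P was densest at MATR3. The 3 libraries had 21 to 26 summits in the MATR3 window, a mean of 3.05 per 10 kb, which placed MATR3 at the 99.1st percentile of all genes, whose median was 0.73. SAFB followed with 1.84 per 10 kb and the long STAG1 gene had 0.33, the lowest of the 10. The summits of MATR3 were spread along the gene and into the flank beyond its end. The first part of the gene overlaps SNHG4 (139274101 to 139284900), and summits there cannot be assigned to one of the 2 genes.

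H3K27ac was called at the start in all 6 libraries for 9 of the 10 genes, against 25.3% of all genes, and LBR was the exception. SMC3 was at 99.84 to 99.95 in every library, above the range of every other gene here. MATR3 (90.1 to 98.7), CTCF (87.5 to 99.7), TOP2B (81.3 to 95.5), LMNB1 (77.5 to 98.2), STAG1 (70.3 to 96.7) and RAD21 (63.4 to 96.5) followed, and each overlapped with the next. SAFB and SAFB2 ranged from 3.42 to 77.1. The summits lay between 223 and 70 bp before the start of SMC3 and 745 to 922 bp after the start of CTCF, where they were the highest of each library. A second CTCF site, 403 bp before the start and beside the strongest HNRNPU summit, had H3K27ac in all 4 shHNRNPU libraries and 1 shLUC library, at 44.9 to 87.8.

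Between the arms H3K27ac showed lower mean percentiles with shHNRNPU at all 10 genes, in a background that moved the same way. The median difference was -6.64 percentile points (shHNRNPU minus shLUC) over the 10 genes and -5.83 over the 12924 genes with a summit, of which 69.7% had a lower mean. The 4 shHNRNPU libraries all lay below both shLUC libraries at SAFB, SAFB2 and SMC3, which is 3 of 10 genes and 2 of 9 start regions, against 11.6% of genes with a summit in at least 1 of the 6 libraries and 7.46% of all genes. The opposite pattern occurred at none of the 10, against 0.797% of genes with a summit and 0.514% of all genes. The H3K27ac lists of shHNRNPU#1 were the shortest (51655 and 40487 summits), those of shHNRNPU#2 held 75264 and 85142 and those of shLUC 62449 and 90914. List length thus differed with the shRNA, and its part in the percentiles was not tested. When the rank from the top of the list replaced the percentile, none of the 10 genes separated the arms.

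At the shared start of SAFB and SAFB2 the acetylation was at 3.42 and 46.6 with shHNRNPU#1, at 65.3 and 35.1 with shHNRNPU#2, and at 77.1 and 73.5 with shLUC. All 4 shHNRNPU values lay below the shLUC values, with means of 37.6 ± 26.0 (SD, n = 4) and 75.3 ± 2.51 (SD, n = 2). At SMC3 the arms did not overlap but differed by only -0.07 points, with 99.91, 99.87, 99.88 and 99.84 in shHNRNPU against 99.95 and 99.95 in shLUC. LBR had no H3K27ac summit at its start in the 4 shHNRNPU libraries and in the first shLUC library, and one at the 64.9th percentile in the second shLUC library, which has the longest list. A lower percentile can arise from fewer cells carrying the mark, from less of it per cell, or from changes elsewhere in the list. These cannot be told apart from ranks in pooled cells.

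At the other genes the arms overlapped. At LMNB1 the shHNRNPU#1 libraries were at 77.5 and 79.5, the shHNRNPU#2 libraries at 92.7 and 92.5 and the shLUC libraries at 89.8 and 98.2. TOP2B showed the same division, with 81.3 and 83.7, then 93.6 and 95.3, and 90.4 and 95.5. At CTCF the values were 87.5 and 91.6, then 99.0 and 97.1, and 98.2 and 99.7. RAD21 was at 83.3 and 63.4, then 93.6 and 94.8, and 87.3 and 96.5. In these 4 genes both shHNRNPU#1 libraries lay below both shLUC libraries while the shHNRNPU#2 libraries overlapped with them. With SAFB, SAFB2 and SMC3, 7 of the 10 genes had both shHNRNPU#1 libraries below shLUC, against 35.1% of genes with a summit. The 7 include both SAFB and SAFB2, which share a start region. STAG1 was at 92.4 and 70.3, then 87.9 and 96.4, and 79.5 and 96.7, and MATR3 moved by -1.30 points between the arm means. An exact two-sided permutation test of 4 against 2 libraries has 15 assignments and cannot go below p = 0.0667, so no gene could pass 0.05. The smallest Benjamini-Hochberg adjusted p over all genes was 0.924 for H3K27ac and 1.0 for H3K4me1.

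**Figure D2:**
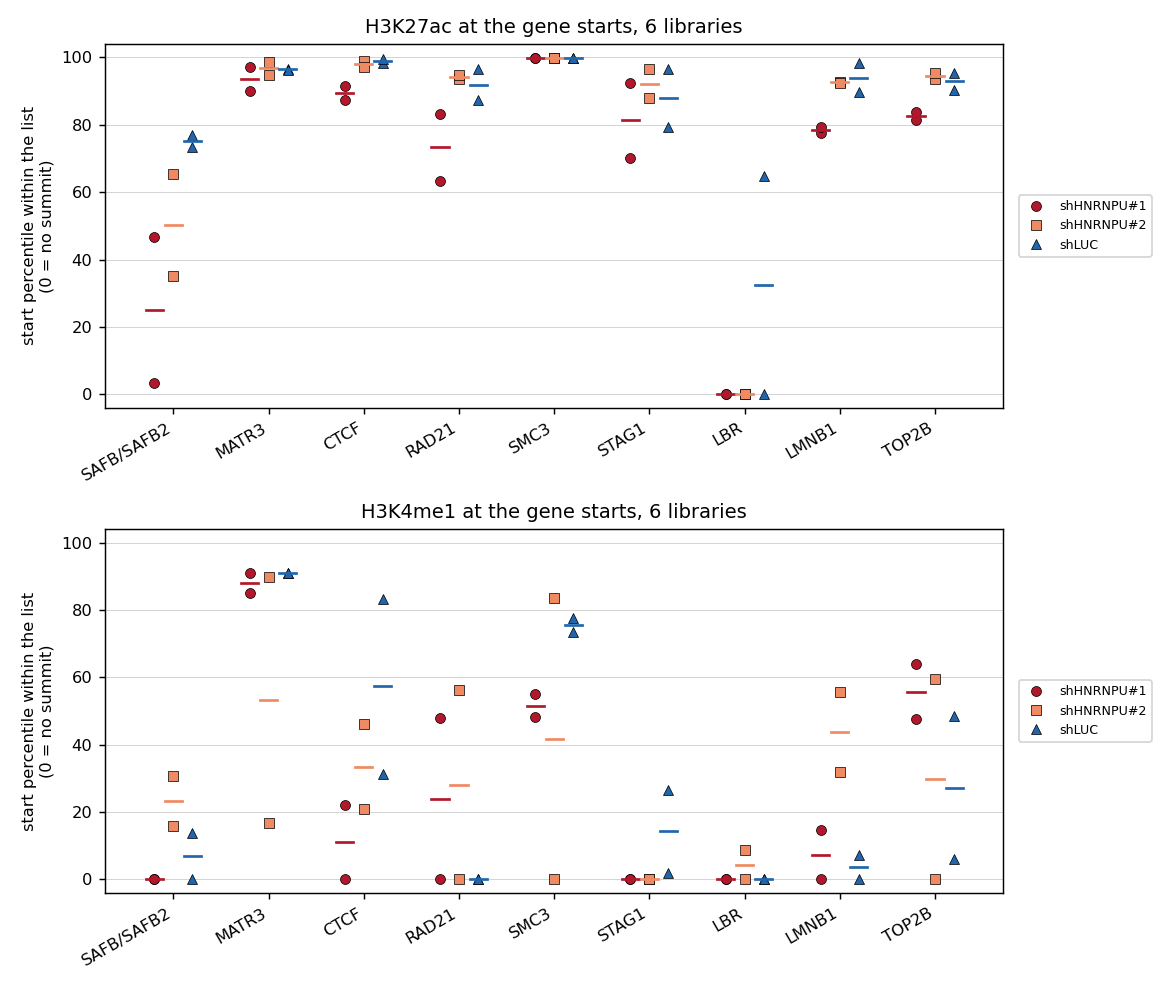
Start percentile (vertical axis, 0 where no summit was called) of H3K27ac and H3K4me1 at the 9 distinct start regions; each symbol is 1 library of shHNRNPU#1, shHNRNPU#2 or shLUC (2 each) and bars are means. SMC3 is at 99.84 to 99.95 for H3K27ac in all 6 libraries, and the shLUC triangles of SAFB/SAFB2 (73.5 and 77.1) lie above all 4 shHNRNPU symbols.

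H3K4me1 was seldom called in every library at these starts. A summit was called in all 6 libraries at 1 of the 10 genes, MATR3, against 43.0% of all genes. In single libraries 4 to 8 of the 10 genes had one, against 55.5% to 70.2% of all genes. At MATR3 the shHNRNPU#1 libraries were at 85.1 and 91.0, the shHNRNPU#2 libraries at 16.8 and 89.9 and the shLUC libraries at 90.9 and 91.1. SMC3 followed with 55.1 and 48.2 in shHNRNPU#1, 0 and 83.6 in shHNRNPU#2, and 73.6 and 77.6 in shLUC. At CTCF the values were 22.2 and 0, then 20.8 and 46.1, and 83.3 and 31.4. The other genes reached at most 64.0 in any library, and the ranges of all neighbours in the order of means overlapped.

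STAG1 was the only one of the 10 genes whose H3K4me1 arms did not overlap, with no summit in the 4 shHNRNPU libraries and summits at 26.7 and 1.90 in the shLUC libraries. This count of 1 lower and 0 higher stands against 5.52% lower and 5.07% higher among genes with a summit in at least 1 library (4.25% and 3.90% of all genes). The shLUC summits of STAG1 were weak and lay 95 and 139 bp before the start, beside HNRNPU and H3K27ac. The median difference over the 10 genes was 3.49 percentile points, with 6 means higher and 4 lower in shHNRNPU, and 0.13 over 15417 genes. It was 2.20 when SAFB and SAFB2 were counted as 1 start region. CTCF (-35.1), SMC3 (-28.9) and MATR3 (-20.3) had the largest negative differences and RAD21 (26.1) and LMNB1 (22.0) the largest positive ones. All of these rested on arms that overlapped, and at RAD21 on 2 of the 4 shHNRNPU libraries (48.0 and 56.3) against 0 in both shLUC libraries.

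**Figure D3:**
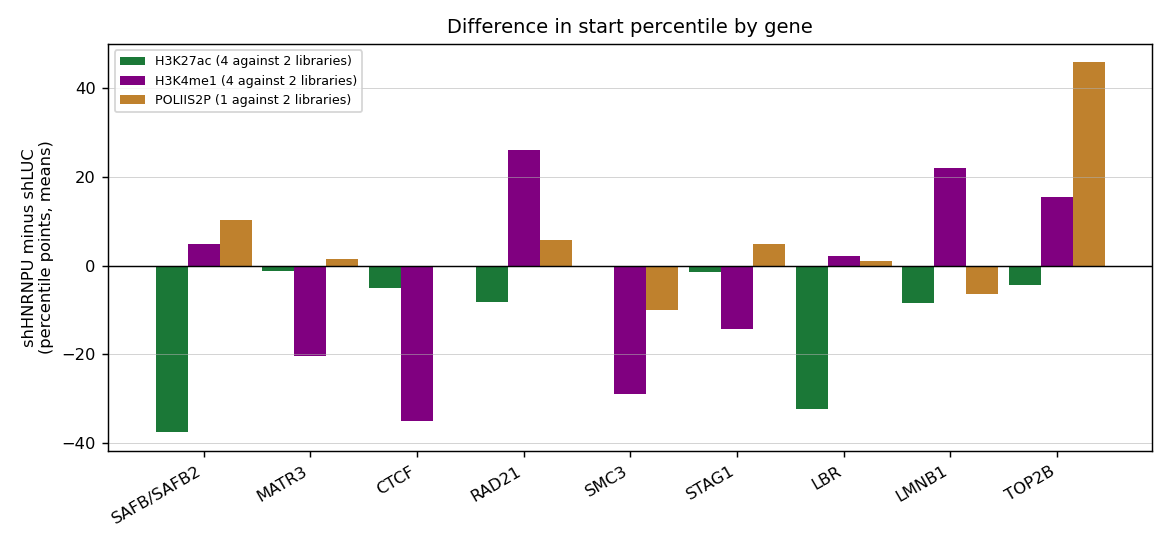
Difference in mean start percentile, shHNRNPU minus shLUC in percentile points (vertical axis), for H3K27ac, H3K4me1 and POLIIS2P at the 9 distinct start regions. The H3K27ac bars are all at or below 0, from -37.7 at SAFB/SAFB2 to -0.07 at SMC3, the POLIIS2P bar of TOP2B reaches 45.9, and no spread is drawn because the libraries are shown singly in the plot of start percentiles.

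When the antibody was taken from the titles instead, the comparison set one histone mark against the other. H3K4me1 then appeared lower with shHNRNPU at 9 of the 10 genes (29.7% of genes with a summit lower, 25.0% higher), with a median difference of -63.6 points. H3K27ac appeared higher at 6 (19.8% of genes higher, 31.9% lower), with a median difference of 33.6 points.

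MATR3 carried different marks at its listed starts, which lie 19639 bp apart. At the first start, which it shares with the RNA gene SNHG4, H3K4me1 was called in all 6 libraries, in 5 of them with the highest summit 548 to 590 bp upstream. At the second start H3K4me1 was called in none. H3K27ac was stronger at the second start than at the first in each of the 6 libraries, for example 96.7 against 70.0 in the first shLUC library and 90.1 against 59.2 in the first shHNRNPU#1 library. POLIIS2P was also stronger at the second start, with 98.5, 96.4 and 97.6 there and 55.2, 41.1 and 16.5 at the first. HNRNPU went the other way, with 92.5 and 68.6 at the first start and 57.3 and 47.8 at the second. Within the gene, sites 9919 and 18414 bp after the second start carried H3K4me1 in all 6 libraries, at up to 94.9 and 97.7.

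**Figure D4:**
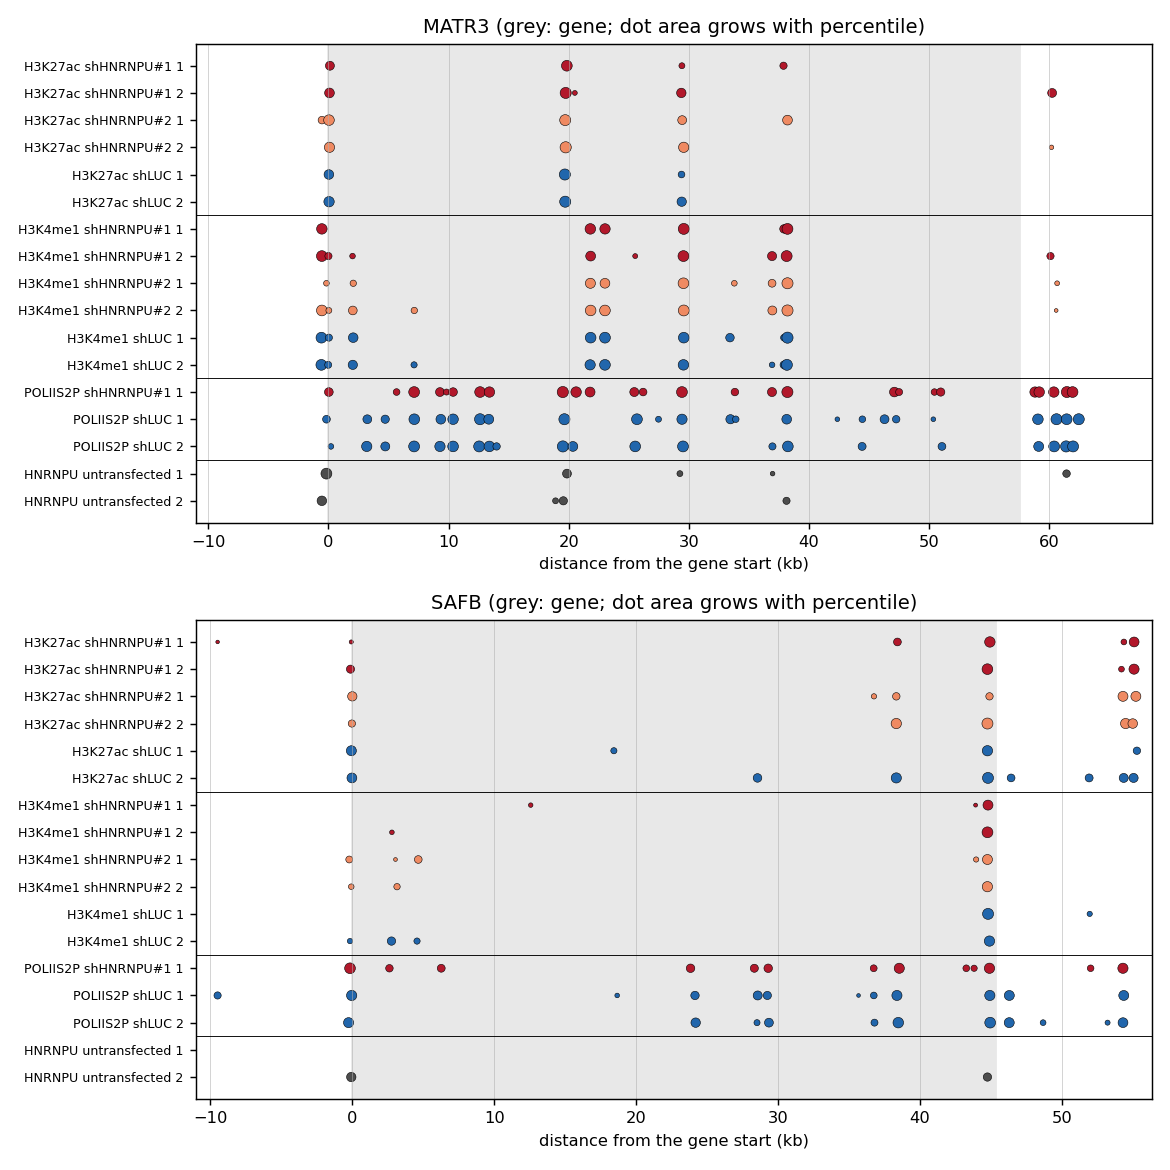
Summits by library (rows) in the windows of MATR3 and SAFB against the distance from the gene start in kb (for MATR3, from its first start), with the gene in grey, dot area growing with the percentile and colour giving the arm as in the plot of start percentiles. MATR3 shows H3K4me1 at its first start but not at its second, and POLIIS2P summits (21 to 26 a library) along the gene.

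SAFB and SAFB2 also had both histone marks around their far ends. A site at the end of SAFB (5667846 to 5667992 for H3K4me1) was called in all 6 H3K4me1 libraries at 75.8 to 94.9, and H3K27ac was called there in all 6 at 36.2 to 94.7. In SAFB2 an H3K27ac site 33191 bp from the start was called in all 6 libraries at 78.7 to 95.2. H3K4me1 was called in all 6 at 78.7 to 95.9 at a separate site, 36590 bp from the start and just beyond the end of SAFB2. At the shared start H3K4me1 was called in 3 of 6 libraries and never exceeded 30.8.

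The remaining genes had H3K4me1 sites called in all 6 libraries, termed constant, most of them inside the gene. TOP2B had one 10860 bp (91.5 to 96.6) and one 16130 bp (92.4 to 98.2) from the start, the latter at the HNRNPU site described above. CTCF had 3 between 30864 and 38735 bp, of which the strongest reached 79.4, and RAD21 had one 3816 bp inside the gene reaching 98.6. RAD21 also had weaker ones further in. LMNB1 had one 1332 bp after its second start and 2 beyond its end. LBR, which lacked histone summits at its start in most libraries, had constant H3K4me1 sites 3318 bp (44.2 to 84.8) and 20337 bp (47.7 to 80.6) inside the gene. STAG1 had one 2055 bp (61.8 to 81.4) and one 224118 bp (79.7 to 94.8) from the start. The only constant SMC3 site lay in the flank beyond its end.

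Sites that separated the arms completely were few. Of 116 H3K4me1 sites in the windows, 22 were called in all 6 libraries, 2 in both shLUC and no shHNRNPU library (1.22% of sites in the windows of all genes) and 1 in all 4 shHNRNPU and no shLUC library (0.577%). The 2 were the STAG1 start and a CTCF site 4355 bp after the start (1.61 and 39.6). The 1 lay in STAG1, 200878 bp from the start, on bases 136551498 to 136551503, at 47.5 to 72.9. Of 98 H3K27ac sites 14 were called in all 6 libraries, 1 in both shLUC and no shHNRNPU library (1.81% of sites in all windows) and 0 in the reverse (0.251%). That 1 lay in STAG1, 253089 bp from the start, at 47.2 to 55.1. Of the 4 separating sites 3 thus lay in or at STAG1, which with 416143 bp also held 30 of the sites of each histone mark.

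**Figure D5:**
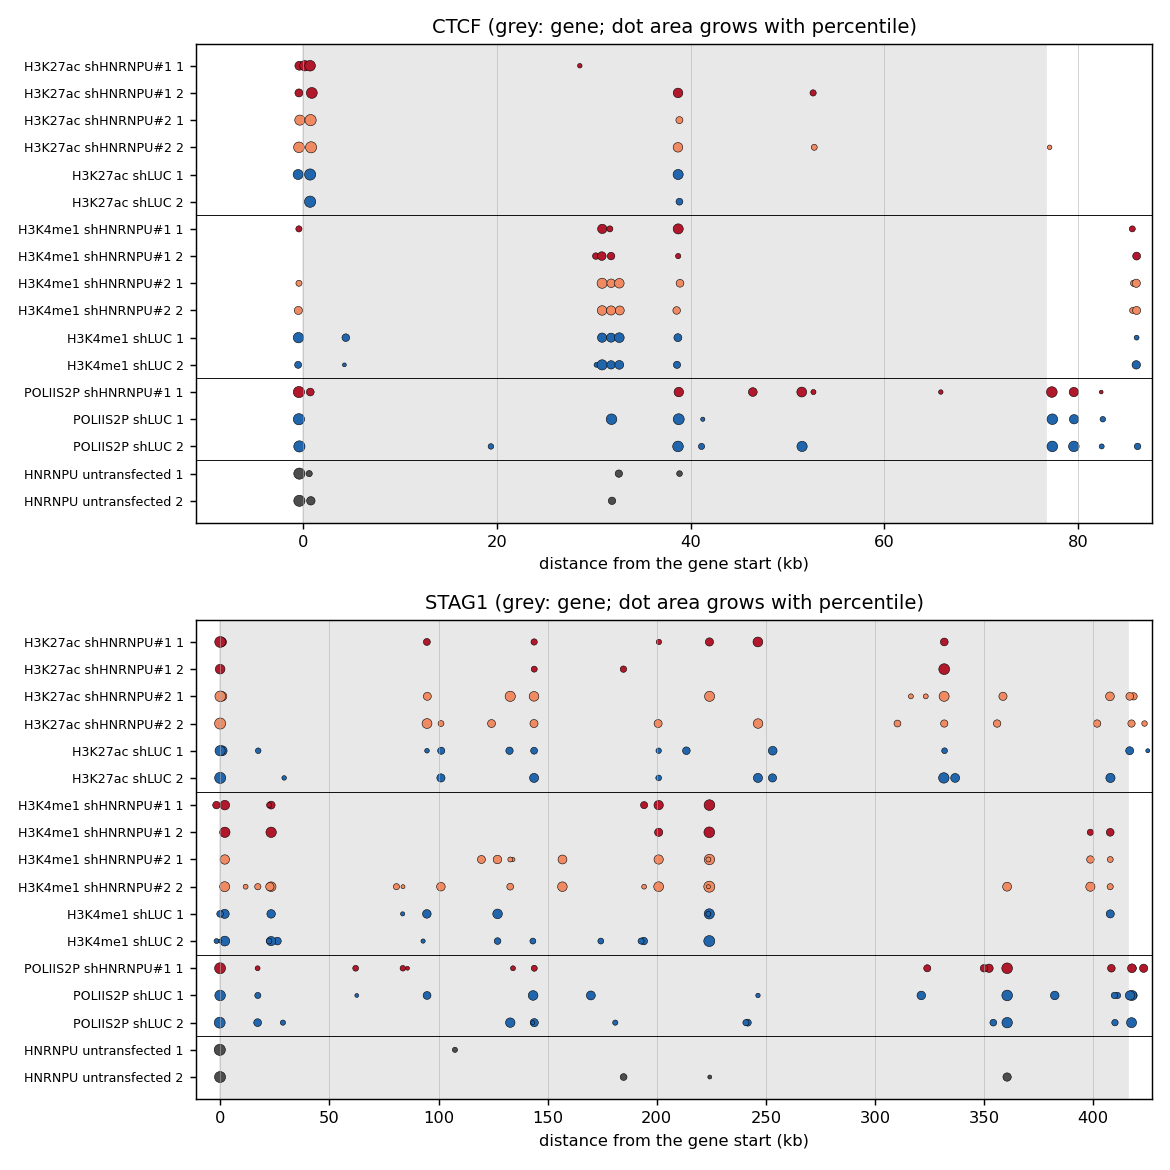
Summits by library (rows) in the windows of CTCF and STAG1 against the distance from the gene start in kb, with the gene in grey, dot area growing with the percentile and colour giving the arm. At STAG1 the H3K4me1 site 200878 bp from the start is present in the 4 shHNRNPU rows and absent from both shLUC rows, and at CTCF H3K27ac lies at the start in all 6 rows.

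Several antibodies placed summits on the same base. At SMC3 base 110567472, 223 bp before the start, was the summit in 4 H3K27ac libraries and 1 HNRNPU library. At CTCF base 67562163 was shared by both HNRNPU libraries, 1 H3K27ac and 1 POLIIS2P library, and at TOP2B base 25664968, 61 bp before the start, by 2 H3K27ac and 2 H3K4me1 libraries. Within 1000 bp of the starts of STAG1 and LBR no base was shared by any 2 libraries.

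For comparison, 36 further genes of nuclear architecture (other cohesin subunits and loaders, condensins, lamins, matrix proteins and HNRNPU) were counted. H3K27ac did not overlap between the arms at 3 of the 32 with a summit, all lower (NIPBL, ESCO1 and NCAPG, named after their values were seen), against 11.6% of genes with a summit, and the median difference was -6.73 points. H3K4me1 did not overlap at 2 of 29, both higher (LEMD3 and NUMA1, likewise), against 5.07%, with a median of 0.43. No gene of this list separated the arms in both histone marks. HNRNPU was at the start in both repeats for 27 of the 36, against 48.9% of all genes.

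Over the 17 libraries the protein-coding gene with the most similar start percentiles was RFX1 for STAG1, at a mean absolute difference of 4.54 percentile points. It was MPHOSPH10 for LMNB1 (5.19), SMURF1 for LBR (5.46), WARS2 for SMC3 (5.72) and ANAPC15 for RAD21 (6.37). TOR1AIP1 was nearest to CTCF (6.98) and ZNF594 to MATR3 (7.05), whereas METTL16 for TOP2B (10.6) and GPANK1 for SAFB and SAFB2 (10.7) were less alike.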

How the data were processed

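The submitters' processing notes name cutadapt, Bowtie2, SAMtools, MACS2 and deepTools and the build hg38, without versions. The paper listed with the series describes another experiment and gave no methods here. The authors deposited a summit list per library, whose score was read as −log10 of a p-value or q-value, since the lists begin near 2.00 or 1.30 (thresholds of 0.01 or 0.05). Their series-wide list of 48095 HNRNPU intervals of 400 bp, with every score at 0, served as an alternative. Depth is unknown. Whether repeats were separate cultures is not stated, so their spread may be technical.

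Percentiles were computed within each list (Python 3.11.15, pandas 2.3.3). Starts came from the RefSeq promoter table, or were both gene ends for 4192 of 20033 genes without an entry. Arms were called apart when no library of one reached the other. Genes named were the 10, any of the wider list apart in both histone marks, and for each the most similar gene over 20000 bp away. A few others, identified as such, were named after their values were seen. Code was tested on simulated lists. The genes, although listed by role, and the lists and comparisons were chosen with earlier results of these data known.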

Additional observations from a re-analysis of the deposited data

Results flagged for a closer look

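Among the 4 shHNRNPU libraries of each histone antibody, 2 start percentiles held a value set far apart from the rest. The H3K4me1 value of MATR3 was 16.81 in the first shHNRNPU#2 library and 85.1 to 91.0 in the other 3. This gap passed a cut-off that chance passes in about 1 in 20 groups, and 20 groups were examined. The H3K4me1 value of LBR was 8.82 in the second shHNRNPU#2 library, which has the longest H3K4me1 list, and 0 in the other 3. With 3 values at 0 any single summit is set apart in this way, so the rate of 1 in 20 does not apply to LBR. No gene had both libraries of one shRNA above and both of the other below the shLUC libraries.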

How the results depend on the processing

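By sample title instead of file name the number of genes with H3K4me1 arms apart went from 1 to 9 and the median difference from 3.49 to -63.56, and for H3K27ac the number went from 3 to 6 and the median from -6.64 to 33.56. The H3K4me1 count was 0 with 2000 bp around the start or with the 20000 highest-scoring summits, 2 in the whole window, 3 with shHNRNPU#1 only and 5 with shHNRNPU#2 only. The 2 were CTCF, lower, and TOP2B, higher, and the 3 were CTCF, SMC3 and STAG1, all lower. With shHNRNPU#2 only, MATR3 and STAG1 were lower and SAFB, SAFB2 and LMNB1 higher. Leaving out 1 library at a time gave 1 to 3 genes and medians of -2.04 to 5.81. The share over all genes was not computed for these H3K4me1 settings, and arms with fewer libraries separate more easily. The H3K27ac count was 0 with the 20000 highest-scoring summits and 0 by rank from the top of the list (added after seeing the data). It was 7 with shHNRNPU#1 only, all lower, against 35.1% of genes with a summit. Leaving out 1 library at a time gave 3 to 9 genes and medians of -11.34 to -2.71, and the 9 arose without the first shLUC library. Those genes were all lower, and the share over all genes was not computed with a library left out. The POLIIS2P median of 3.18 was 0.57 in the whole window and 1.34 to 4.03 without either shLUC library. With SAFB and SAFB2 as 1 start region (added after seeing the data) the medians were 2.20 for H3K4me1, -5.15 for H3K27ac and 1.49 for POLIIS2P. The HNRNPU count of 8 was 7 with 500 bp around the start and 9 in the whole window. It was 10 with the series-wide intervals and 8 to 10 with 1 repeat left out. Across genes the deviations of libraries with the same repeat number correlated between groups at -0.02 to 0.01. Whether libraries with the same number shared a culture or batch is not stated. A replicate block counted genes with both shRNAs on the same side of shLUC within each repeat number, the side being the same in both. The H3K4me1 count was then 2 and the H3K27ac count 3, and no share over all genes was computed. The block medians of 3.49 and -6.64 equal the main ones by construction, because each repeat number holds the same set of shRNAs, so they test nothing. Of 76 alternative values 56 stayed within the spread between libraries or, for counts, within 1.5 times. For the medians that spread is wide. The 56 include the block medians, which could not change, and H3K4me1 medians of the opposite sign, such as -4.95 with shHNRNPU#1 only. The tally therefore does not show that the medians are stable.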
